A study of Bos taurus with 14 samples.

Results

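The miR-2284 and miR-2285 family was examined in small RNA libraries from the blood of Holstein cows. Its members were all names beginning with bta-miR-2284 or bta-miR-2285 that had reads in at least 1 library. There were 104 of them among the 932 names with reads, 23 in miR-2284 and 81 in miR-2285. The libraries came from 4 ruminally cannulated, non-lactating cows, each sampled first on a diet of forage alone (FD, with 0% concentrate) and later on a high-grain diet (HG, with 65% concentrate) after 1 week, the latter fed to induce subacute ruminal acidosis. Cell-free plasma gave 8 libraries, from cows 1 to 4 on each diet, and leucocytes from the buffy coat gave 6, from cows 1, 3 and 4 on each diet. The plasma labels do not name the cow, so plasma libraries were numbered in the order of the labels and their pairing is assumed. The cows carried no genetic change, FD always came before HG, and no cow stayed on FD, so that diet and time cannot be told apart. RNA was extracted with a plasma kit from plasma and with another kit from leucocytes, so that tissue and extraction kit cannot be told apart either.

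MicroRNAs are short RNAs that guide Argonaute proteins to matching sites in messenger RNAs and lower the output of those messages. The miR-2284 and miR-2285 family is known from cattle and other ruminants, where it is spread over very many loci with closely similar hairpins. Because mature sequences of such a family resemble each other, 1 read can match several names and several places in the genome.

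Reads assigned to miRNAs numbered between 376589 and 4464702 per plasma library and between 21764578 and 66070770 per leucocyte library. A level below is a read count per 1e6 miRNA reads of the library (RPM), in which a read counts in full at each name it matches, unless it is called an estimated count. Detection means 2 reads or more, the smallest value in the files. A count of 0 allows up to 3 reads, equal to 0.181 RPM over all plasma libraries and 0.0113 RPM over all leucocyte libraries, and these limits cover counting error only. Single reads of a library are not recorded, and the limits do not allow for these. As a check of the labelled tissues, the leucocyte list (7 of 7 miRNAs found, among them miR-142, miR-150 and miR-223) took 3.02 to 4.82% of the reads in leucocytes and 2.16 to 3.15% in plasma, 4 of the 7 having a higher mean in leucocytes. The erythrocyte list (3 of 3 found, miR-451, miR-144 and miR-486) took 29.8 to 42.6% of the reads in leucocytes and 5.66 to 18.5% in plasma. The hepatocyte miRNA miR-122 took 0.00167 to 0.00757% in leucocytes and 0.517 to 6.17% in plasma, the platelet list (2 of 2 found) 0.00467 to 0.0206% and 0.229 to 0.543%, and none of the listed miRNAs was at 0 in any library. The part of these cell types in the differences between the tissues was not tested.

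Together the members took between 0.216 and 0.522% of the estimated counts of a library, in which a read is divided among the names and places it matches. In these counts they took 0.367% ± 0.0762 (SD, n = 4 libraries) in plasma on FD, 0.307% ± 0.0615 (SD, n = 4) in plasma on HG, 0.435% ± 0.0597 (SD, n = 3) in leucocytes on FD and 0.484% ± 0.0341 (SD, n = 3) in leucocytes on HG. From FD to HG the share was lower in 3 of 4 cows in plasma (difference -0.0593 ± 0.0685 percentage points) and higher in 3 of 3 cows in leucocytes (0.0493 ± 0.0309 percentage points). In plasma the difference was smaller than its spread between the cows. In leucocytes it was larger than its spread in these counts, although 1 of the 3 cows was lower on HG when the share was taken of the bovine names only.

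The estimated counts can understate members with several loci. For each name the files list 1 place, and the estimated count beside it may hold only the part of the reads given to that place. In leucocytes 46 of the 104 members had over 1.5 reads per estimated count, and the highest value was 17.6 (miR-2285au). Division between names raises this ratio as well, as for miR-2284ab and miR-2285by, listed at 1 hairpin, with 2.07. How much of the ratio came from places and how much from names was not separated. At miR-2285bc and miR-2284x the ratio was 1.0003 and 1.03, at miR-2285bf 2.98 and at miR-2285k 3.54. Shares between members are therefore also given in reads, with names that had the same read count in all libraries taken 1 time. In that measure the family took 0.341% ± 0.0830 (SD, n = 4) in plasma on FD, 0.298% ± 0.0713 (SD, n = 4) in plasma on HG, 0.457% ± 0.0468 (SD, n = 3) in leucocytes on FD and 0.480% ± 0.0303 (SD, n = 3) in leucocytes on HG. From FD to HG it differed by -0.0427 ± 0.0741 percentage points in plasma, higher in 1 of 4 cows. The difference in leucocytes was 0.0228 ± 0.0202 percentage points, higher in 3 of 3 cows and close to its spread. There miR-2285bc alone differed by 0.0568 ± 0.0228.

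**Figure D1:**
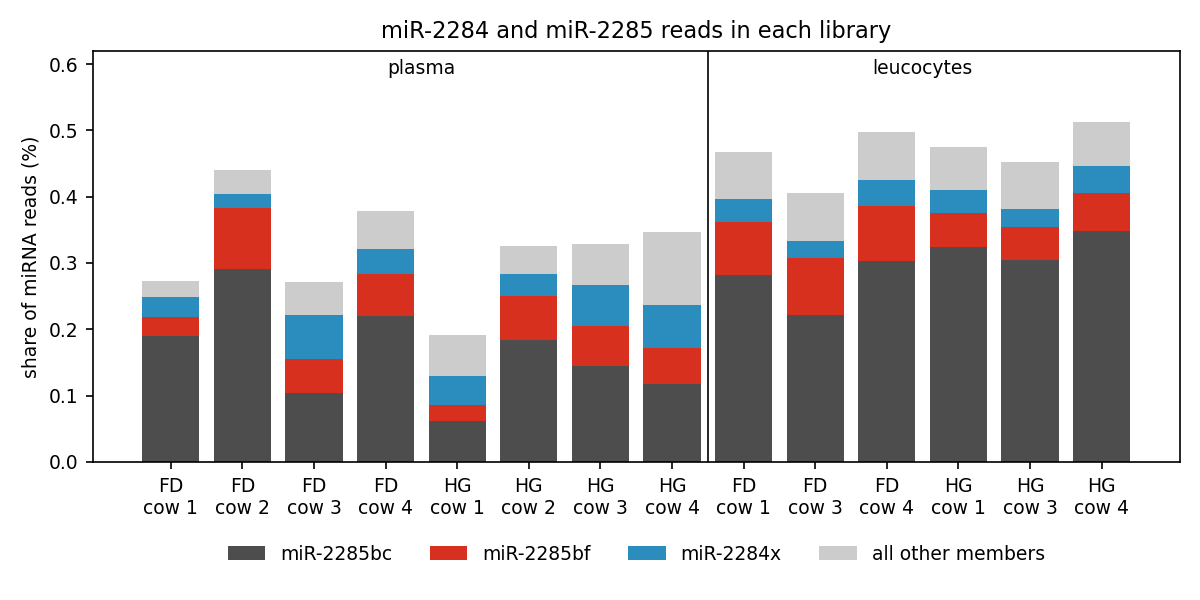
Share of the miRNA reads of each library (%, y axis) taken by miR-2285bc, miR-2285bf, miR-2284x and all other members, with names of the same read count in all libraries taken 1 time. Each bar is 1 library, 8 from plasma on the left and 6 from leucocytes on the right; miR-2285bc is the lowest and, in all but 1 library, the tallest segment.

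A single member, miR-2285bc, had the highest mean share of the family in both tissues. It took 63.2% ± 5.53 of the family's reads in leucocytes (SD, n = 6 libraries) and 49.9% ± 14.7 in plasma (SD, n = 8), and 75.3% ± 3.46 and 61.4% ± 16.4 of its estimated counts. In reads it took under 50% of the family in 4 of 8 plasma libraries and in 0 of 6 leucocyte libraries. Its locus is listed on chromosome 3, 94548627 to 94548649 on the + strand (UMD3.1), and RefSeq (ARS-UCD2.0) places MIR2285BC within the span of ORC1, a gene of the origin recognition complex. In plasma on FD it took 0.189, 0.291, 0.104 and 0.220% of the library in cows 1 to 4. On HG it took 0.0613, 0.185, 0.145 and 0.117% in the same cows. Plasma levels on both diets overlapped. In leucocytes of cows 1, 3 and 4 it took 0.281, 0.222 and 0.304% on FD and 0.324, 0.305 and 0.349% on HG.

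miR-2285bf and miR-2284x came next. miR-2285bf took 14.7% ± 4.30 of the family's reads in leucocytes (SD, n = 6) and 16.7% ± 3.58 in plasma (SD, n = 8). Its reads were listed at hairpins on chromosome 6 (94664420 to 94664440, + strand), where mir-2285bf-1 and mir-2285bf-3 share 1 place, and on chromosome X (125791353 to 125791373, - strand). miR-2284x took 7.15% ± 0.765 in leucocytes (SD, n = 6) and 15.2% ± 7.07 in plasma (SD, n = 8), from a locus on chromosome 1 (3607767 to 3607787, - strand) that RefSeq places within the span of TIAM1, which codes for a RAC exchange factor. In estimated counts the 5 leading members together held 93.2% ± 1.01 of the family in leucocytes (SD, n = 6) and 89.96% ± 7.14 in plasma (SD, n = 8). These were miR-2285bc, miR-2284x and miR-2285bf in both tissues, joined by miR-2285t and miR-2285aa in leucocytes and by miR-2285k and miR-2285q in plasma. The place of miR-2285q rested on cow 3 on FD, whose library held 285 of its 546 plasma reads. In reads, with equal names taken 1 time, the 5 leading members were the same in both tissues. They were miR-2285bc, miR-2285bf, miR-2284x, miR-2285k and miR-2284aa, whose reads equal those of miR-2284z. Together they held 90.1% ± 0.985 in leucocytes (SD, n = 6) and 88.9% ± 6.90 in plasma (SD, n = 8).

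The next members were far lower and less even in plasma. miR-2284aa, with the same reads as miR-2284z, had 140 ± 35.8 RPM in leucocytes on FD and 148 ± 16.8 on HG (SD, n = 3 each). In plasma it had 67.3 ± 60.8 and 95.9 ± 35.0 (SD, n = 4 each). miR-2285k had 103 ± 12.7 RPM in leucocytes on FD and 73.3 ± 4.55 on HG (SD, n = 3 each), and 135 ± 80.5 and 146 ± 106 in plasma (SD, n = 4 each). miR-2285t, whose hairpin lies within the span of the Fc receptor gene FCGR2B in RefSeq, had 89.7 ± 20.7 and 80.4 ± 22.1 RPM in leucocytes and 10.9 ± 8.89 and 47.8 ± 30.2 in plasma. miR-2284w, within the span of DOCK11, had 28.0 ± 3.17 and 35.5 ± 7.48 RPM in leucocytes and 3.94 ± 3.30 and 27.2 ± 31.8 in plasma. In plasma on HG 251 of the 318 plasma reads of miR-2284w were those of cow 4. miR-2285b had 39.2 ± 7.66 and 38.4 ± 5.53 RPM in leucocytes and 3.90 ± 3.27 and 27.4 ± 33.8 in plasma, and miR-2285p had 20.8 ± 3.01 and 17.6 ± 2.28 in leucocytes and 7.54 ± 7.64 and 28.5 ± 24.9 in plasma. In leucocytes the SD of these members was always below the mean, whereas in plasma it exceeded the mean in 3 of them on 1 diet (miR-2285p on FD, miR-2284w and miR-2285b on HG).

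**Figure D2:**
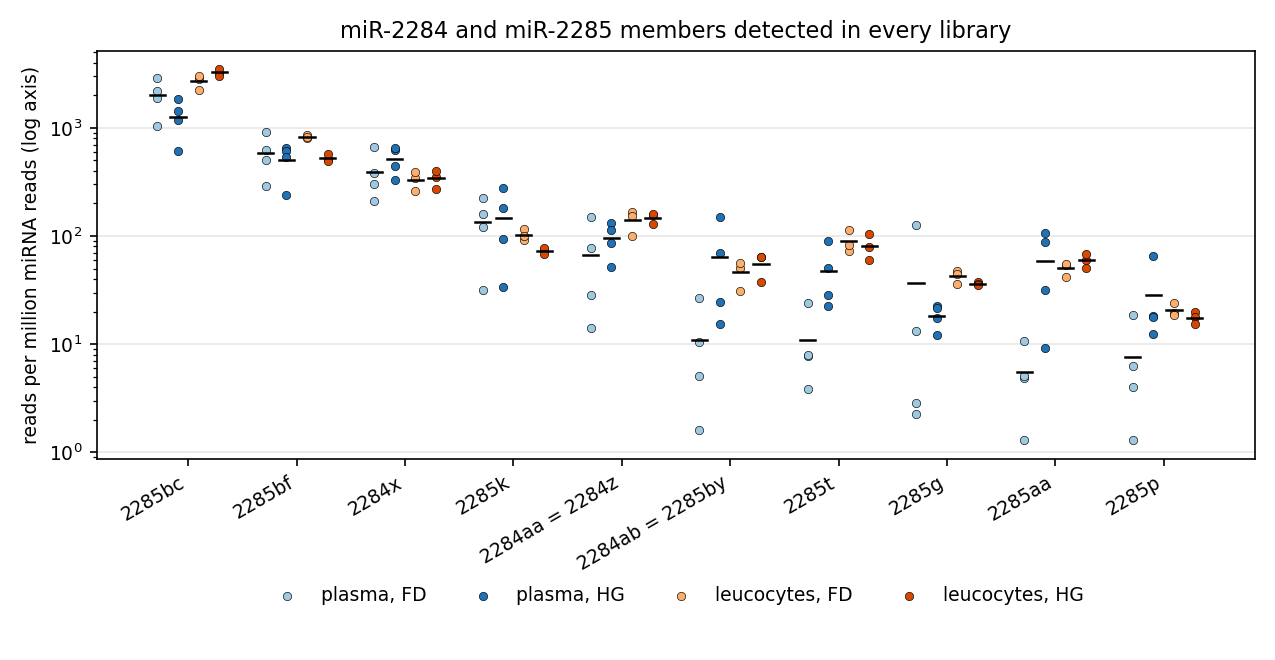
Levels (RPM, log axis) of the members detected in all 14 libraries, with names of the same read count drawn as 1. Each point is 1 library, horizontal bars are group means, and colours give tissue and diet; leucocyte points lie closer together than plasma points, and miR-2285bc lies above all other members on average.

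Several names stood for the same reads. The read counts were the same in all 14 libraries for 10 pairs of members, and with each pair taken 1 time 94 members remained. In 4 of these pairs each name had 5 reads or fewer in all. The other 6 pairs, which also had the same number of distinct sequences in each library, are given here since their reads cannot be assigned to 1 name. miR-2284aa and miR-2284z had 1330 plasma and 40027 leucocyte reads and were listed at 5 hairpins (mir-2284z-2, -3, -4, -5 and -7), on chromosomes 11, 15, 3, 5 and 7, with 15.5 reads per estimated count in leucocytes. miR-2284ab and miR-2285by had 979 and 14195 reads and were both listed at mir-2284ab on chromosome 6, starting at 103797778 and 103797779. miR-2284y and miR-2285av had 141 and 2409 reads, with 13.3 reads per estimated count. miR-2284ac and miR-2285ai-5p had 121 and 209 reads, all those in plasma from cow 3 on FD, while miR-2285ar and miR-2285bd (634 leucocyte reads) and miR-2285aq and miR-2285bi (42) had none in plasma. In each of these 6 pairs both names had the same estimated counts too, so that the division had not separated them, and every pair counts as 2 members in the numbers of members below unless stated otherwise.

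Other members shared part of their reads. miR-2285u and miR-2285bg are listed 3 bases apart at the hairpin mir-2285u on chromosome 13 (73061061 to 73061080 and 73061064 to 73061083, + strand), and miR-2285u was listed at mir-2285o-3 on chromosome 24 (33897713 to 33897732, + strand) in other libraries. RefSeq holds MIR2285BG elsewhere, within the span of PTPRD. Some hairpins of the family also face each other on opposite strands, since mir-2284y-2 (73061024 to 73061044, - strand) lies beside mir-2285u, mir-2284y-4 (33897677 to 33897697, - strand) lies beside mir-2285o-3, and the mature span of miR-2284h-3p on chromosome 5 (118347353 to 118347372, + strand) overlaps that of miR-2285o at mir-2285o-5 (118347351 to 118347370, - strand). In RefSeq 191 loci bear a MIR2284 or MIR2285 symbol, 97 of the 104 members matched one by name, and 125 of the loci (65.4%) lie within the span of a protein-coding gene.

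Fewer members were seen in plasma than in leucocytes, at different depths. In plasma 37 members were detected in at least 1 library and 12 in all 8 libraries. In leucocytes all 104 were detected, 54 of them in all 6 libraries. Thus 67 members, 64.4% of those in leucocytes, were found in leucocytes and in no plasma library, against 31.7% of all names, while no member was found in plasma only. Per library 17 to 28 members were detected in plasma and 68 to 90 in leucocytes. The leucocyte libraries were far deeper. At 376589 reads in every library, the size of the smallest, 31.5 members would be expected in plasma and 35.4 in leucocytes, with 10.03 in leucocytes but not in plasma and 6.12 the reverse. This expectation still runs over 8 plasma and 6 leucocyte libraries, which gives plasma more chances of detection. It was not computed for all names, so the 31.7% has no such counterpart.

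For 24 of the 67 leucocyte-only members over 3 reads would be expected at their leucocyte level over all plasma libraries together. Single reads of a library stand as 0, so that the absence cannot be read for those near this limit. Such were miR-2285di with 3.13 reads expected and miR-2285cf with 4.94, while miR-2285bp had 55.1. For the other 43 a difference was not detectable at this depth. The 67 members made up 0.528% of the family's leucocyte reads. The leading ones are named here. miR-2285bp, listed on chromosome 15 (78706113 to 78706134, - strand) and within the span of FNBP4 in RefSeq, had 260, 171 and 81 reads in leucocytes of cows 1, 3 and 4 on FD and 164, 109 and 96 on HG, and 0 in all plasma libraries. Its leucocyte level was 3.34 ± 0.447 RPM (SD, n = 6). In pooled reads, which weight the libraries by their depth, it had 3.33 RPM in leucocytes. That was 18.4-fold above a floor of 3 reads over all plasma libraries, which does not allow for unrecorded single reads. miR-2285bz had a pooled level of 2.76 RPM, 15.2-fold above that floor, and the pair miR-2285ar and miR-2285bd had 2.397 RPM, 13.2-fold above it. The means over libraries stood in the other order, with 2.50 ± 1.04 RPM for miR-2285bz and 2.56 ± 0.553 for the pair (SD, n = 6). miR-2285au had between 5 and 144 reads per leucocyte library from 1 or 2 distinct sequences. Its pooled level of 1.69 RPM was 9.33-fold above the same floor, its mean being 1.55 ± 0.690 RPM (SD, n = 6). miR-2285an had 48, 55 and 48 reads in leucocytes of cows 1, 3 and 4 on FD and 46, 54 and 41 on HG. miR-2285bb was detected in leucocytes of cow 3 only, with 14 reads on FD and 10 on HG.

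Of the members that did reach plasma, many did so in few libraries. In 22 of the 37 over 50% of the plasma reads came from 1 library, and in 9 at least 90% did. miR-2285df had 229 reads in plasma of cow 4 on FD from 1 distinct sequence, 2 reads in cow 3 on FD and 0 in the other plasma libraries, against 0 to 5 reads in leucocytes. miR-2285am-5p had 2 and 102 plasma reads in cow 1 on FD and HG, each from 1 distinct sequence, and 0 in the other cows, but 15 to 81 reads in each leucocyte library. miR-2285v and miR-2285ac had plasma reads only in cow 4 on HG, 57 and 60, each from 1 distinct sequence. Among plasma values of 50 to 500 reads, 34 of 54 of the members' (63.0%) came from at most 3 distinct sequences, compared with 27.5% of those of the other names. In leucocytes these shares were 4.27% and 2.201%. No test was made of this difference, since names that share reads are not independent.

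**Figure D3:**
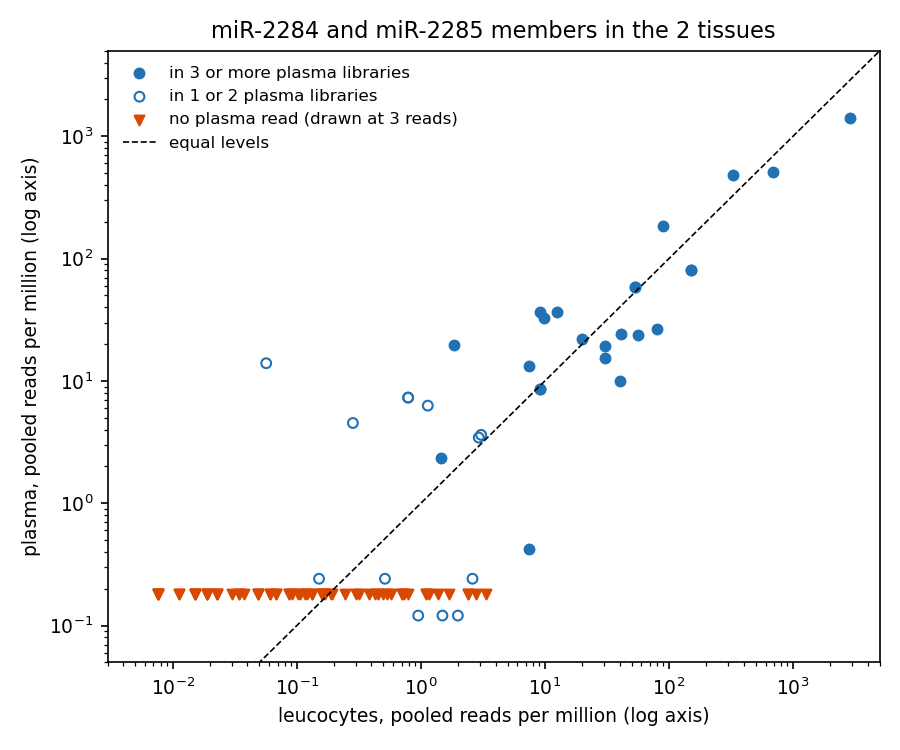
Pooled level of each member in leucocytes (x axis) against plasma (y axis), both in RPM on log axes. Filled circles are members in 3 or more plasma libraries, open circles those in 1 or 2, and triangles the 67 members without plasma reads, drawn at the plasma level of 3 reads (0.181); miR-2285bc is the point farthest to the right.

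Levels of members were compared between the tissues on each diet with edgeR's quasi-likelihood test on rounded estimated counts (TMM normalization, 4 plasma against 3 leucocyte libraries, Benjamini-Hochberg adjusted p over all names). On FD 71 members had at least 10 estimated counts in total and 23 were called higher in leucocytes (32.4%, against 25.8% of all 745 names), while 1 was called lower (1.41%, against 17.3%), namely miR-2285df. On HG 65 members were tested and 37 were called higher (56.9%, against 38% of all 732 names) and 0 lower (0%, against 16.3%), also 0 at an unadjusted p under 0.05 and 0 with DESeq2, but 1 with the total count alone. Members and names without a plasma read on that diet passed the filter through leucocytes alone and could not be called lower. Of the 31 members with plasma reads on FD 8 were called higher (25.8%, against 18.7% of such names) and 1 lower (3.23%, against 24.9%), and of the 30 on HG 12 were called higher (40%, against 29.9%) and 0 lower (against 20.1%). Of those without, 15 of 40 on FD (37.5%, against 42% of such names) and 25 of 35 on HG (71.4%, against 72.1%) were called higher. With cow as a term, since both tissues came from the same cows, 7 members were called on FD and 25 on HG. Leaving out 1 cow gave 9 to 22 calls on FD, with 9 without cow 3 and 12 without cow 1, and 17 to 31 on HG, with 17 without cow 1. Without the cow term 18 members were called higher on both diets. The calls of all names with the cow term, without 1 cow or on both diets are not given here. These counts therefore say nothing about the members against other names. A difference between the diets in these calls was not tested. The tissue differences of single members below are from the fit without the cow term, and their calls with it are not given here.

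The sizes depended on the scaling. On HG the TMM factors were 1.45 to 2.28 for plasma and 0.405 to 0.479 for leucocytes, and the median log2 fold change of all names, leucocytes minus plasma, was 1.21 with TMM, 0.73 with DESeq2's size factors and -0.78 with the total count alone. On FD it was 1.18, 1.5001 and 0.54. Under all 3 scalings 15 members were called higher in leucocytes on FD and 16 on HG, of which 8 were the same. Only 3 of the 15 (miR-2285aa, miR-2285j and miR-2285t) and 2 of the 16 (miR-2285bc and miR-2285h) had plasma reads on that diet. The rest could not be called lower under any scaling. The share of all names called under all 3 scalings was not computed, so these counts say nothing about the family.

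miR-2285h, on chromosome 12 (15678882 to 15678903, + strand), was called higher in leucocytes under each scaling on both diets. It had 412, 455 and 157 reads in leucocytes of cows 1, 3 and 4 on FD and 357, 310 and 267 on HG. In plasma it had 0 reads in all cows on FD and 2, 2, 0 and 3 in cows 1 to 4 on HG. The recorded levels did not overlap, with 6.24 to 9.69 RPM in leucocytes and at most 2.05 in plasma. In plasma of cow 1 on FD, however, 0 reads allowed up to 7.97 RPM. Without a plasma read on FD it could not be called lower there. On HG its log2 fold change was 5.14 ± 0.94 (SE, edgeR adjusted p = 0.00372) with TMM and 3.16 with the total count alone.

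miR-2285bc was called higher in leucocytes on HG only, where its levels did not overlap, with a log2 fold change of 3.30 ± 0.29 (SE, edgeR adjusted p = 9.43e-05) with TMM, and 1.198 with the total count alone (adjusted p = 0.0182). On FD it was 0.85 ± 0.41 (edgeR adjusted p = 0.121). miR-2285t was called higher on both diets with TMM, by 3.69 ± 0.77 on FD (edgeR adjusted p = 0.00776) and 2.68 ± 0.47 on HG (edgeR adjusted p = 0.00316), but on HG it was 0.60 and not called with the total count alone. miR-2285aa, within the span of the repair gene ERCC3, was called by 3.85 ± 0.89 on FD (edgeR adjusted p = 0.0105) and 2.07 ± 0.63 on HG (edgeR adjusted p = 0.0263), and on HG it was not called with DESeq2's size factors and its value turned to -0.12 with the total count alone. miR-2285bf and miR-2284x were called higher on HG with TMM (1.98 ± 0.31 and 1.22 ± 0.38, edgeR adjusted p = 0.00185 and 0.0281), and these too turned, to -0.10 and -0.78, with the total count alone, the call of miR-2284x being lost with DESeq2's size factors as well. Their levels in plasma and leucocytes overlapped on HG, with 241 to 650 against 490 to 578 RPM for miR-2285bf and 332 to 655 against 270 to 400 RPM for miR-2284x.

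The diet comparison in leucocytes called 1 of 76 members with edgeR (cow plus diet), miR-2285bf, which was lower on HG (1.32% of members lower, against 1.41% of all 779 names, of which 14 or 1.8% were called in either direction). A share near that of all names says nothing about the family. miR-2285bf had 814, 854 and 827 RPM in leucocytes of cows 1, 3 and 4 on FD and 518, 490 and 578 RPM on HG. It was lower on HG in each cow and the groups did not overlap. The log2 fold change was -0.66 ± 0.14 (SE, edgeR adjusted p = 0.0352, n = 3 cows). The call was lost with DESeq2's size factors (adjusted p = 0.0505), without the cow term (0.727), without cow 1 (0.298) and without cow 3 (0.990), and it stood without cow 4 (2.23e-05). The log2 fold change stayed between -0.75 and -0.54 when a cow was left out.

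In the same libraries miR-2285bc was 0.28 ± 0.12 higher on HG on the log2 scale and was not called (edgeR adjusted p = 0.304). The ratio of both members within a library does not depend on the scaling. In leucocytes there were 28.9, 38.5 and 27.2 miR-2285bf reads per 100 miR-2285bc reads in cows 1, 3 and 4 on FD, and 15.99, 16.1 and 16.6 on HG. The mean was 31.6 ± 6.06 on FD and 16.2 ± 0.321 on HG (SD, n = 3 each), without overlap. In plasma it was 31.1 ± 13.7 on FD and 40.7 ± 4.60 on HG (SD, n = 4 each), and the groups overlapped. No test was made of this ratio, which was formed after the values were seen. Leaving out miR-2285bc, the share of the other members together in leucocytes differed by -0.0340 ± 0.00319 percentage points between HG and FD (SD, n = 3). Of this miR-2285bf made up -0.0303 ± 0.00578, and without it -0.00369 ± 0.00264 percentage points remained.

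**Figure D4:**
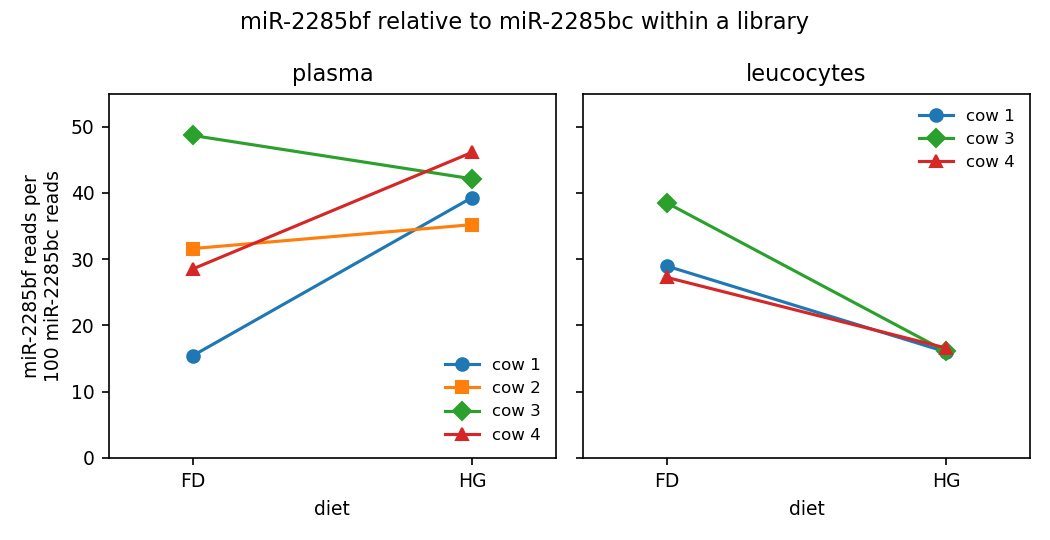
miR-2285bf reads per 100 miR-2285bc reads (y axis) on FD and HG in plasma (left) and leucocytes (right), each line joining both libraries of 1 cow. In leucocytes the 3 lines fall to between 15.99 and 16.6 on HG, while in plasma the 4 lines lie between 15.4 and 48.7 without a common direction.

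The further members with an unadjusted p under 0.05 in leucocytes were miR-2285bg (log2 fold change -1.24 ± 0.33, edgeR adjusted p = 0.101), miR-2285u (-0.75 ± 0.22, 0.128) and miR-2285k (-0.52 ± 0.17, 0.182), so that 5 of 76 passed that threshold, against 116 of all 779 names. In RPM 16 of the 104 members were lower on HG in all 3 cows (15.4%, against 16.7% of all names) and 9 were higher (8.65%, against 16%).

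In plasma no member was called between the diets with edgeR, as 0 of 30 tested and 0 of all 536 names (0%) had an adjusted p under 0.05. At an unadjusted p under 0.05 there were 5 members and 46 of all names. DESeq2's Wald test called 10 names, of which 1 was a member, miR-2285aa (adjusted p = 0.0384). miR-2285aa had 10.6, 4.90, 5.12 and 1.29 RPM in plasma of cows 1 to 4 on FD, from 4 to 9 reads each, and 31.8, 108, 88.4 and 9.12 RPM on HG, from 31 to 142 reads. It was higher on HG in 4 of 4 cows, although the lowest HG value was below the highest FD value, and the log2 fold change was 2.84 ± 1.03 (SE, edgeR adjusted p = 0.503). In leucocytes of cows 1, 3 and 4 the same member had 54.2, 54.6 and 41.5 RPM on FD and 60.6, 68.9 and 50.7 on HG.

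Members that were higher on HG in all 4 cows numbered 7 of the 37 found in plasma (18.9%, against 11.1% of all names), and 0 were lower in all 4 (0%, against 1.4%). Beside miR-2285aa they were the pairs miR-2284ab with miR-2285by and miR-2284y with miR-2285av, miR-2285j and miR-2285u. Each pair has the same reads and counts as 2 of the 7. The share with equal names taken 1 time was not computed for all names, so the 18.9% says nothing about the family against other names. For miR-2285u the direction in cow 1 cannot be read, since 0 reads on FD allowed up to 7.97 RPM, against 0.448 RPM on HG. The pair miR-2284ab and miR-2285by had 26.6, 10.503, 5.12 and 1.62 RPM on FD and 148, 15.4, 24.5 and 69.4 on HG, of which cow 1 on HG gave 663 of 979 reads. The pair miR-2284y and miR-2285av had 0, 8, 2 and 3 reads on FD and 95, 10, 9 and 14 on HG. miR-2285j had 0, 3, 6 and 6 reads on FD and 57, 10, 60 and 112 on HG (log2 fold change 2.95 ± 1.21, SE, edgeR adjusted p = 0.503). In leucocytes miR-2285j was lower on HG in 3 of 3 cows, with 35.9, 32.2 and 27.6 RPM on FD and 31.1, 22.6 and 24.6 on HG in cows 1, 3 and 4. The leading member miR-2285bc was lower on HG in 3 of 4 cows in plasma, by a log2 fold change of -1.08 ± 0.44 (SE, edgeR adjusted p = 0.503).

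miR-2285u and miR-2285bg set cow 4 apart. miR-2285u had 0, 0, 0 and 165 reads in plasma of cows 1 to 4 on FD and 2, 4, 2 and 432 on HG. In leucocytes it had 412, 348 and 1306 reads in cows 1, 3 and 4 on FD and 218, 154 and 878 on HG, which is 6.24, 6.17 and 60.01 RPM on FD and 4.07, 3.94 and 31.9 on HG. All 4 libraries of cow 4 thus lay above every library of the same tissue from the other cows, where the cow of the plasma libraries is assumed from the order of the labels. miR-2285bg had the same plasma reads as miR-2285u in cow 4, and in leucocytes 0.0454, 1.12 and 64.6 RPM on FD and 0, 0.358 and 34.3 on HG in cows 1, 3 and 4.

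After these values were seen, all names were searched for such a pattern. These were the only 2 of 916 names in leucocytes (0.218%) of which both libraries of 1 cow were at least 5-fold above all libraries of the other cows, and no name met this in cow 1 or cow 3. The lowest library of cow 4 was 5.11-fold above the highest of the others for miR-2285u, just inside that limit, and 30.7-fold for miR-2285bg. Both names are listed at the same hairpin in cow 4. The listed place differed as well. In leucocytes of cows 1 and 3 miR-2285u had 5.28 to 5.38 reads per estimated count, 8 distinct sequences and the listed place mir-2285o-3, while in cow 4 it had 2.11 and 2.12, 17 distinct sequences and the place mir-2285u. miR-2285o, named for the hairpin mir-2285o-3, had 5.04 to 9.79 RPM in all leucocyte libraries, without a lead of cow 4 of that size. A comparison of miR-2285u between the diets in plasma therefore rests on cow 4 and on 8 reads of the other cows, with a log2 fold change of 1.199 in the plasma test, which did not call it.

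**Figure D5:**
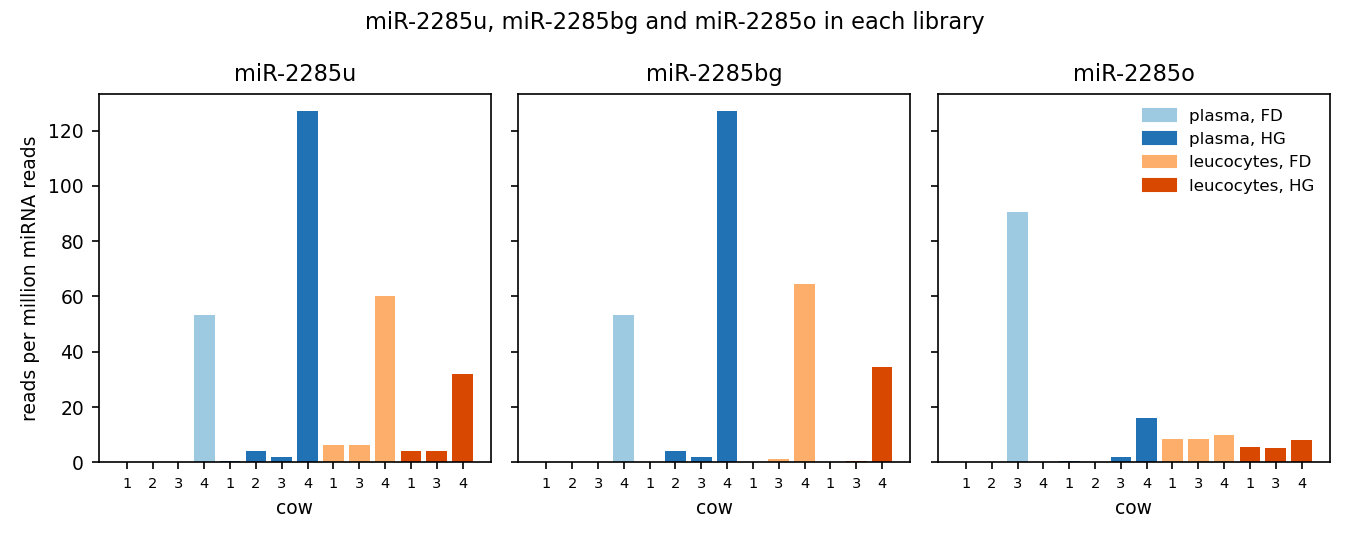
Levels (RPM, y axis) of miR-2285u, miR-2285bg and miR-2285o in each library, each bar 1 library with its cow on the x axis and tissue and diet in colour. miR-2285u and miR-2285bg are highest in the 4 libraries numbered as cow 4 (assumed in plasma), between 31.9 and 127, whereas miR-2285o is highest in plasma of cow 3 on FD (90.5).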

How the data were processed

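Small RNA was sequenced from plasma (8 libraries) and leucocytes (6). The study gives demultiplexing with bcl2fastq 2.20, trimming with Skewer, and sRNAbench with miRBase and the UMD3.1 genome, with mismatches allowed. For each library the authors deposited read counts (a read counts in full at each name), estimated counts (expected counts, divided over names and places, the file keeping 1 place per name), and the number of distinct sequences. Scaled reads served only to recover library totals, and the authors' normalized tables were not used. RefSeq names and the spans of other genes around them came from ARS-UCD2.0, while the positions printed here are those of UMD3.1.

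The miR-2284 and miR-2285 names and all lists were chosen with earlier results of these data known. Tests used edgeR 4.0.16 in R 4.3.3 (robust quasi-likelihood, TMM, names with at least 10 rounded estimated counts in total, Benjamini-Hochberg over all names, adjusted p under 0.05), with cow plus diet for diet and no cow term between tissues, and were tested on simulated data. Other values were computed with Python 3.11.15 (pandas, scipy). Alternatives were DESeq2 1.42.0, undivided read counts, other scalings and filters, the cow term, equal depth (hypergeometric expectation) and each cow left out. Scaling by the total count alone and read counts with equal names taken 1 time were added after seeing the data.

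Cows pair the diets. Leucocyte labels carry a letter per cow, and profiles correlated within cows (r = 0.224 to 0.280, deviations from group means) and not between them (-0.243 to 0.00689). Plasma labels do not name cows, so that plasma cows follow the order of the labels. Profiles in plasma did not show this pairing (-0.156 to 0.0570 within, -0.183 to 0.240 between cows). Plasma comparisons by cow rest on that order. Named members are the 10 leading in each tissue, those called between diets, the 5 with the smallest adjusted p and no overlap per tissue comparison and direction, the 5 leucocyte-only members with most reads, the 6 largest groups of equal counts and 10 of those that the study names. Others named (among them miR-2285bg, miR-2285o and miR-2285df) were chosen after their values were seen.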

Additional observations from a re-analysis of the deposited data

Results flagged for a closer look

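In plasma some members had 1 library far from the other 3 of its diet, by the gap to the nearest library relative to the range. Of 35 groups of 4 libraries tested, 7 were flagged in this way. Chance flags about 1 in 20 for normally distributed values, which levels with many zeros are not, and in 3 of the 7 the other 3 libraries were at 0, so that the gap was the whole range. The family share of cow 1 on HG was 0.216% in estimated counts, against 0.332 to 0.346% in the other cows. miR-2285u stood apart in cow 4 with 53.4 RPM on FD, where the others had 0, and with 127 RPM on HG, where the others had 0.448 to 4.10. miR-2285am-5p stood apart in cow 1 with 5.31 RPM on FD and 22.8 RPM on HG, where the others had 0, and the FD value was 2 reads. miR-2285q had 162 RPM in cow 3 on FD, against 0 to 2.80 in the others. miR-2285p had 65.6 RPM in cow 4 on HG, against 12.3 to 18.4.

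By the recorded counts the diet difference of 2 members ran in opposite directions in the tissues in every cow. miR-2285j had a log2 fold change of 2.95 in plasma, higher on HG in 4 of 4 cows, and -0.30 in leucocytes, lower in 3 of 3. miR-2285u had 1.199 in plasma and -0.75 in leucocytes. Its plasma direction in cow 1 cannot be read, since 0 reads on FD allowed up to 7.97 RPM, against 0.448 RPM on HG. The difference between the tissues was not tested, and of 626 names found in both tissues 26 (4.15%) ran in opposite directions in this way, against 2 of 37 members (5.41%).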

How the results depend on the processing

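In plasma DESeq2's Wald test called 1 member between the diets and each other alternative 0. In leucocytes DESeq2's size factors and the fit with no replicate block called 0, and leaving out 1 cow gave 0 to 6 members (0 without cow 1 and without cow 3, 6 without cow 4, all lower on HG). Between tissues on FD 24 members were called, 10 with filterByExpr, 7 with cow as a replicate block, 9 without cow 3 and 12 without cow 1 (9 to 22 over the cows). On HG 37 were called, 12 with DESeq2's Wald test, 10 with filterByExpr, 25 with the replicate block, 17 with the total count alone and 17 without cow 1 (17 to 31 over the cows). filterByExpr left 17 and 18 members in these tests. Calls of all names are not given for these settings. Of the estimated counts of the bovine names only, the family took 0.497 and 0.419% in plasma (FD, HG) and 0.680 and 0.715% in leucocytes. The 5 leading members held 87.4% of undivided reads in leucocytes and 90.1% with equal names taken 1 time. Detection in leucocytes fell from 104 to 35.4 at equal depth, and leucocyte-only members from 67 to 42 with at least 10 reads and to 10.03 at equal depth. With the total count alone the log2 fold change between tissues reversed for miR-2284x (-0.43 on FD, -0.78 on HG), miR-2285k (-0.48 on FD, -1.27 on HG), and on HG miR-2285bf (-0.10), miR-2285aa (-0.12) and miR-2285j (-0.28). On FD, leaving out 1 cow gave -0.055 (without cow 2) to 0.71 for miR-2284x and -0.25 (without cow 3) to 0.51 for miR-2285k, which was -0.013 with undivided reads. The cause of these moves was not tested. The other 82 recomputed counts and shares stayed within 1.5 times, or 1 SD, of the reported value.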
